A study of Homo sapiens with 6 samples.

Results

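The HOX cluster genes were followed in U2OS, a human osteosarcoma cell line, with and without MBTD1, a subunit of the TIP60/NuA4 acetyltransferase complex that binds methylated histone tails. Members were all rows of the deposited table whose gene symbol is HOXA, HOXB, HOXC or HOXD followed by digits only, which gave 39 of 34602 genes. Of these, 11 belong to HOXA, 10 to HOXB, 9 to HOXC and 9 to HOXD. RNA of 6 untreated U2OS clones grown in serum-containing medium was hybridised to Illumina bead arrays, 1 array per clone. The knockout group holds 3 clones in which MBTD1 had been targeted with CRISPR/Cas9, and the control group holds 3 clones whose titles read "control KO". The design text calls the controls wild type and the labels call them clones, so how they were derived is not known, and the p-values cover no more than the spread among the 6 arrays, which may be technical.

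HOX genes encode homeodomain transcription factors that give cells a position along the body axis. Each cluster carries paralogs numbered from the 3′ to the 5′ end; in development the low numbers are switched on first and towards the head, the high numbers later and towards the tail and the ends of the limbs. Adult mesenchymal and bone cells keep part of the pattern of the body site they came from. Trithorax-type complexes hold active HOX genes in an open state and polycomb complexes hold silent ones closed, and on DNA the HOX proteins pair with TALE homeodomain partners of the PBX and MEIS families. Here paralog groups 1 to 3 are called anterior, 4 to 8 central and 9 to 13 posterior.

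Neighbouring HOX genes differed in whether they were seen at all, and the RefSeq promoter windows (GRCh38.p14) of such neighbours are shown so that their sequence can be set beside that difference. A window runs from 250 bases before to 50 bases after the annotated start, and 20 of the 39 genes had a window. HOXD11 (chr2:176107030-176107329, plus strand) was above background on all 6 arrays and the next gene, HOXD12 (chr2:176099545-176099844, plus strand), on 0. HOXA6 (chr7:27147725-27148024, minus strand) was above background on all 6 arrays and HOXA7 (chr7:27156626-27156925, minus strand) on 0. HOXA9 (chr7:27165488-27165787, minus strand) is shown because it gave the most negative knockout difference of the family. Capitals mark matches to the TATA box (TATAAA), the CCAAT box (CCAAT) and a PBX-HOX site (TGATTNAT), searched on both strands.
HOXD11: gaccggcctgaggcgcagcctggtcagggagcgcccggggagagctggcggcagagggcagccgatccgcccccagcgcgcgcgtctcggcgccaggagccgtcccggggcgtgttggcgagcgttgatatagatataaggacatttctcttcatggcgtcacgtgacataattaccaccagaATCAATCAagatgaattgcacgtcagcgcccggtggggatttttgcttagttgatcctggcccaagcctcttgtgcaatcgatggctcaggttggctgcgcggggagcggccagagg
HOXD12: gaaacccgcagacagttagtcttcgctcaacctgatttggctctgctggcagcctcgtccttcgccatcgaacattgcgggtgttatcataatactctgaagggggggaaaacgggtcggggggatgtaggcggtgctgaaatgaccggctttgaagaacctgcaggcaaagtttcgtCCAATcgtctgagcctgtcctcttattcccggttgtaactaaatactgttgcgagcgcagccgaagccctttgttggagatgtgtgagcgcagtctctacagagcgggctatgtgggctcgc
HOXA6: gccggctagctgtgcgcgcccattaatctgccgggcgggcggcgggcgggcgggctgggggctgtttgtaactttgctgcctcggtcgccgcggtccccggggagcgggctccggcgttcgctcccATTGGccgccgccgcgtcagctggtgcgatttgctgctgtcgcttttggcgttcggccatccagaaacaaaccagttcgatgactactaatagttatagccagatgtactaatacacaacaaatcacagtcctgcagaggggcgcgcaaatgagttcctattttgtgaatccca
HOXA7: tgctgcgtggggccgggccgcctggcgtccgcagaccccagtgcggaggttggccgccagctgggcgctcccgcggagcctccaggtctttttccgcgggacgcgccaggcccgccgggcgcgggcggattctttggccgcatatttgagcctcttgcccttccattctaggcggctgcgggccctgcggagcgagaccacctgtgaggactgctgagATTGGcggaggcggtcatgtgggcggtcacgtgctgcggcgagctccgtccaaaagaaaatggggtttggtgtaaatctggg
HOXA9: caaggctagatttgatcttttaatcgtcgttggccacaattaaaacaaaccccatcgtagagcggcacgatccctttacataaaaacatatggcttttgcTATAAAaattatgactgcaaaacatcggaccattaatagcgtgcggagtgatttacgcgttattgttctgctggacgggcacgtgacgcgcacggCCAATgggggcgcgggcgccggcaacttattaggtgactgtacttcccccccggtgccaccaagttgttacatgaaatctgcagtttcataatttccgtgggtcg
The HOXD11 window held 1 match to the PBX-HOX site, and the HOXD12 window held 1 CCAAT box. HOXA6 and HOXA7 held 1 CCAAT box each. HOXA9 held 1 TATA box and 1 CCAAT box. Among all 34796 windows of the table, 11.6% held TATAAA, 34.6% held CCAAT and 2.82% held TGATTNAT. All 5 windows were richer in CpG than the median window of the table, which held 14 CpG dinucleotides (quartiles 4 and 28): there were 27 in HOXD11, 19 in HOXD12, 29 in HOXA6, 31 in HOXA7 and 22 in HOXA9. HOXA6 and HOXA7 had similar CpG numbers and the same box. By detection p the array saw HOXA6 in every clone and HOXA7 in none, at intensities of 94.4 to 103.5 and 81.4 to 89.0. The part of the window sequence in that difference was not tested. A match is a description of the letters in the window and shows no binding.

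A gene was counted as above background on an array at a detection p under 0.05, a deposited value that compares its signal with that of negative control beads. Of the 39 HOX genes, 20 (51.3%) were above background on at least 3 of the 6 arrays, against 38% of all genes. On all 6 arrays, 10 of the 39 HOX genes were above background, against 27.2% of all 34602 genes. These 10 were HOXA2, HOXA5, HOXA6, HOXB2, HOXB5, HOXB7, HOXC8, HOXC9, HOXC13 and HOXD11. They come from all 4 clusters and from both ends of the number series, with HOXA2 and HOXB2 in the anterior group and HOXC9, HOXC13 and HOXD11 in the posterior group. HOXA4, HOXB6, HOXB13, HOXC6 and HOXD8 were above background on 4 arrays, and HOXA9, HOXB3, HOXB8, HOXD3 and HOXD10 on 3.

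Among the genes that did not reach 3 arrays, HOXA11 and HOXC10 were above background on 2 arrays, in both cases 2 control clones and 0 knockout clones. For both genes the normalized values of the groups overlapped, and the mean intensity of HOXC10 was 85.9 in either group. HOXB4 was above background on 1 array, a control clone. On 0 arrays were 15 genes, while 44.1% of all genes were seen on none: HOXA3, HOXA7, HOXA10, HOXA13, HOXB1, HOXB9, HOXC4, HOXC5, HOXC11, HOXC12, HOXD1, HOXD4, HOXD9, HOXD12 and HOXD13. The most posterior genes of HOXA and HOXD, HOXA13 and HOXD13, which shape the digits, were thus not detectable, whereas HOXC13, known for its part in hair and nails, was above background in every clone. An array signal at background sets only an upper bound on a transcript.

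By position, 4 of 8 anterior, 10 of 15 central and 6 of 16 posterior genes were above background on at least 3 arrays. By cluster the counts were 5 of 11 for HOXA, 7 of 10 for HOXB, 4 of 9 for HOXC and 4 of 9 for HOXD. All members of paralog groups 2, 6 and 8 were seen in this sense, and 0 members of group 12. The complete groups rest in part on HOXA2, HOXB6, HOXB8 and HOXD8, which lay near background. By detection p, the seen genes formed an unbroken block in no cluster. The gaps at HOXA3, HOXB9 and HOXD9 rest on HOXA2, HOXA4, HOXB13, HOXD8 and HOXD10, which lay near background. In HOXA, HOXA3 and HOXA7 were not seen between neighbours that were; in HOXB, HOXB13, which lies beyond PRAC1 and PRAC2 and is known from the prostate, was seen while HOXB9 was not; in HOXD, HOXD8, HOXD10 and HOXD11 were seen around HOXD9, which was not. Control clones had 16, 20 and 16 HOX genes above background and knockout clones 15, 16 and 18, so the groups overlapped in number.

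**Figure D1:**
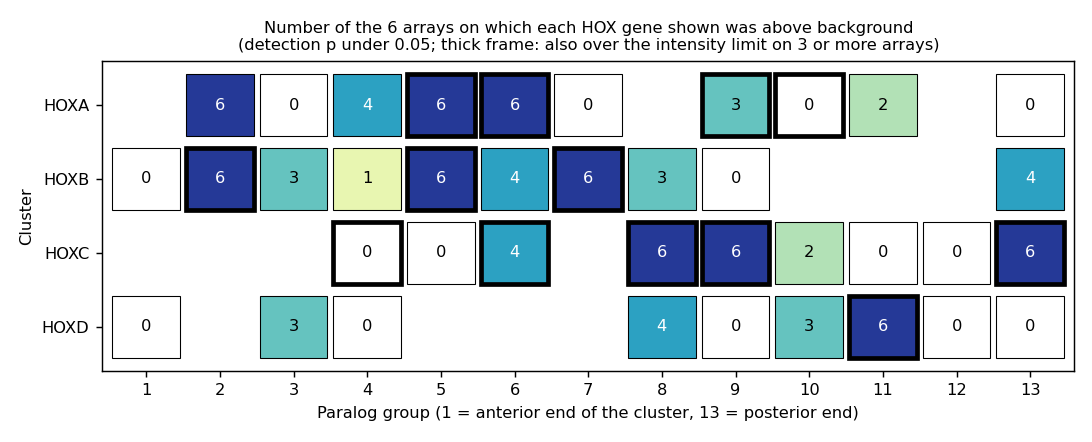
Number of arrays, of 6, on which each HOX gene was above background, with clusters in rows and paralog groups in columns; an empty place has no gene reported here, and a thick frame marks genes that also exceeded the intensity limit on at least 3 arrays. Dark cells stand in all 4 clusters, groups 2, 6 and 8 hold no white cell, and group 12 holds no gene seen on 3 arrays.

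Detection had a weak point for some genes, because 9 of the 39 HOX rows average several probes and their detection p does not follow the averaged signal. Another rule, chosen after the data were seen, asked for an intensity over the fitted background mean plus 3 background SDs on at least 3 arrays. It kept 13 of the 39 genes, against 31.8% of all genes. Both rules together kept 11 (29.9% of all genes): HOXA5, HOXA6, HOXA9, HOXB2, HOXB5, HOXB7, HOXC6, HOXC8, HOXC9, HOXC13 and HOXD11. The intensity rule alone kept HOXA10, known from the uterus in mice and humans, with intensities of 93.4 to 104.6, and HOXC4, with 87.7 to 103.2. Detection p alone kept 9 genes, HOXA2, HOXA4, HOXB3, HOXB6, HOXB8, HOXB13, HOXD3, HOXD8 and HOXD10, whose normalized log2 intensities lay between 4.21 and 4.88 in every clone. These 9 lie close to the background, and the offset of 16 added before the log compresses their differences.

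The signal of MBTD1 itself checks nothing about the edit. Its normalized log2 intensity, on the scale used for all differences below, was 5.06, 5.05 and 5.05 in the controls and 5.17, 4.99 and 4.62 in the knockouts, a difference of -0.13 (limma adjusted p = 0.676). The row averages several probes whose places relative to the edit were not used here, and an edited gene can still be transcribed. Osteoblast and mesenchyme markers were above background for 7 of 10 genes, with 0 past the threshold, COL1A2 on no array, and summed intensities of 4420 to 5275 in control and 4127 to 4567 in knockout clones. Of these 7, 5 measured below 0 in the knockouts, with a median difference of -0.20 over the 7. SPP1, a bone matrix protein gene, differed by -1.22 (limma adjusted p = 0.0521). VIM, the mesenchymal intermediate filament gene, differed by -0.71 (adjusted p = 0.0564), and for both genes the groups did not overlap. VIM makes up most of the sums above, with intensities of 2898 to 3660 in control and 2608 to 2729 in knockout clones. All sums in this paragraph are without background subtraction. COL1A1 and BGLAP measured above 0, at 0.35 (adjusted p = 0.364) and 0.04 (adjusted p = 0.884). IBSP, another bone matrix protein gene, differed by -0.20 (adjusted p = 0.328) at intensities of 84.5 to 89.0. IBSP was above background in 3 control and 0 knockout clones, so the filter partly fixed its sign and its lack of overlap. Of 5 epithelial markers 3 were above background, with sums of 587 to 628 in control and 491 to 640 in knockout clones and CDH1 and KRT5 on no array. All 3 measured below 0 with a median difference of -0.39: KRT18 differed by -0.39 (adjusted p = 0.180) and EPCAM by -0.30 (adjusted p = 0.261), both with groups apart, while the keratin gene KRT8 had intensities of 187 to 207 in the controls and 106, 260 and 112 in the knockouts. Among all 13145 tested genes, 25.9% had groups apart, 13.7% of them downwards in the knockouts as a share of all tested genes, and 46.2% measured above 0. The part of these marker differences in any HOX value was not tested. Of 5 blood and endothelial markers 0 were above background on any array. The 6 arrays had 12982 to 13511 genes above background, a median intensity of 84.7 to 87.2 and 20 to 22 beads per value in the median.

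Knockout and control clones were compared over all 13145 genes above background on at least 3 arrays, which passed 207 genes at a limma adjusted p under 0.05 (1.57%, with 1.2% higher and 0.373% lower in the knockouts). Of the 20 tested HOX genes 0 passed, and the smallest adjusted p was 0.165, for HOXA9. The median difference (knockout minus control, log2) over the 20 genes was 0.0457, beside -0.0226 over all tested genes, and 12 HOX genes measured above 0 and 8 below, while 46.2% of all tested genes lay above 0. For scale, the median difference between control clone 1 and control clone 2 over the same 20 genes was 0.0924. This is a wide yardstick, since a difference of single clones varies more than one of means of 3. Control clones 1 and 2 also lay farthest apart, with HOX medians of 0.0428 and -0.0651 against the control mean and -0.00448 for control clone 3. At an unadjusted p under 0.05 there were 2 HOX genes measuring higher, HOXB2 and HOXB7, and 2 measuring lower, HOXA9 and HOXD11. Among all tested genes 20.4% had such a p, 10.1% measuring higher and 10.3% lower, so the HOX counts lay at the background share in both directions. The groups did not overlap for 3 HOX genes, with 1 higher (HOXB5) and 2 lower (HOXA9 and HOXD11), where 25.9% of all tested genes had groups apart, 12.2% upwards and 13.7% downwards. Knockout clones all lay within the control range for 3 HOX genes, HOXC6, HOXC8 and HOXD8, as they did for 9.21% of all tested genes. In bulk RNA a change in the level per cell and a change in the number of cells that express a gene cannot be told apart.

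**Figure D2:**
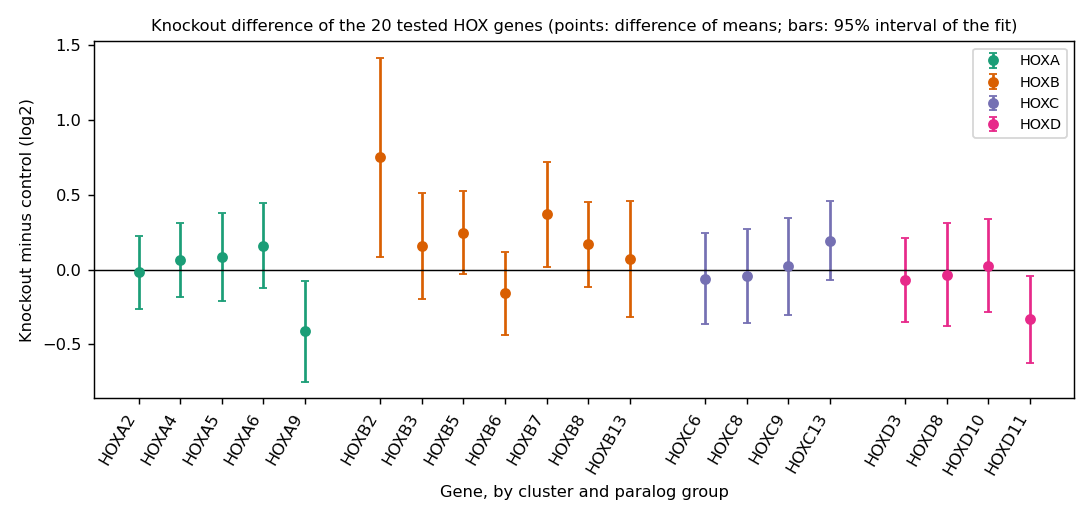
Knockout minus control difference in normalized log2 intensity of the 20 tested HOX genes, in paralog order within each cluster; points are differences of group means (n = 3 clones each) and bars the 95% intervals of the limma fit, not adjusted for the number of genes. The intervals of HOXA9 and HOXD11 lie below 0 and those of HOXB2 and HOXB7 above it, and 0 genes passed after adjustment.

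HOXB had the highest median difference of the clusters, 0.17, with 6 of its 7 tested genes measuring above 0 and 0 past the threshold. HOXB2, which in mice patterns the hindbrain, had the largest difference of the family. Its intensity was 175.5, 174.7 and 162.4 in the controls and 171.4, 341.5 and 268.0 in the knockouts, with standard errors over the beads of 2.95 to 16.1. Knockout clone 1 thus sat among the controls, and knockout clones 2 and 3 sat far above them. On the normalized log2 scale the controls measured 6.86, 6.61 and 6.68 and the knockout clones 6.70, 8.05 and 7.65. The difference of 0.75 ± 0.29 (SE, n = 3 and 3, a ratio of 1.68) did not pass (limma adjusted p = 0.197). Without knockout clone 1 it was 1.12 and passed (adjusted p = 0.0287), and without knockout clone 2 it was 0.46 and did not (adjusted p = 0.382), so single clones decided both the call and the size. The call without knockout clone 1 was the only HOX call in any setting. The number of all genes past the threshold also moved strongly with the clone left out. With the background fitted on all rows the HOXB2 difference was 0.28. The SD of HOXB2 among knockout clones was 0.70, against 0.13 among controls, and 1.22% of all tested genes had a knockout SD at least as large.

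HOXB7, studied in breast cancer as an overexpressed HOX factor, likewise had its lowest knockout value in clone 1. Its normalized log2 intensity was 7.21, 6.92 and 6.92 in the controls and 7.10, 7.48 and 7.58 in the knockouts, a difference of 0.37 ± 0.16 (SE; limma adjusted p = 0.229). Knockout clone 1 again lay within the control range and the other two above it. HOXB5, a marker of long-term blood stem cells in mice, measured 6.43, 6.32 and 6.56 in the controls and 6.61, 6.82 and 6.62 in the knockouts. All 3 knockout clones lay above all 3 controls, but the nearest values of the groups were only 6.61 and 6.56, and the difference of 0.25 ± 0.12 (SE) did not pass (adjusted p = 0.295).

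The other HOXB genes were near background. HOXB3, expressed in the hindbrain and pharyngeal arches of the mouse embryo, measured 4.29, 4.50 and 4.32 in the controls and 4.26, 4.82 and 4.51 in the knockouts, again lowest in knockout clone 1 and highest in knockout clone 2. HOXB8, which immortalises myeloid progenitors when forced on in mouse marrow, had a difference of 0.17 (adjusted p = 0.494). HOXB6 was the HOXB gene with a negative difference, -0.16 (adjusted p = 0.512), and HOXB13 differed by 0.07 (adjusted p = 0.867). Across the 7 genes, knockout clone 1 lay above the control range for 2, knockout clone 2 for 5 and knockout clone 3 for 5, where the shares of all tested genes were 29.9%, 31.8% and 31.1%. Knockout clone 1 within the control range with clones 2 and 3 above it, an order chosen after HOXB2 was seen, held for 4 of the 20 HOX genes (HOXA6, HOXB2, HOXB7 and HOXC13) and for 4.24% of all tested genes. MBTD1 and the HOXB cluster are both on chromosome 17 in the deposited annotation. CALCOCO2, an autophagy receptor gene beyond the HOXB13 end of the cluster, named here after its values were seen, had another order: 4.94, 5.02 and 4.94 in the controls and 5.47, 4.61 and 5.05 in the knockouts. Whether the place of these genes on the chromosome has a part in the HOXB values was not tested.

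**Figure D3:**
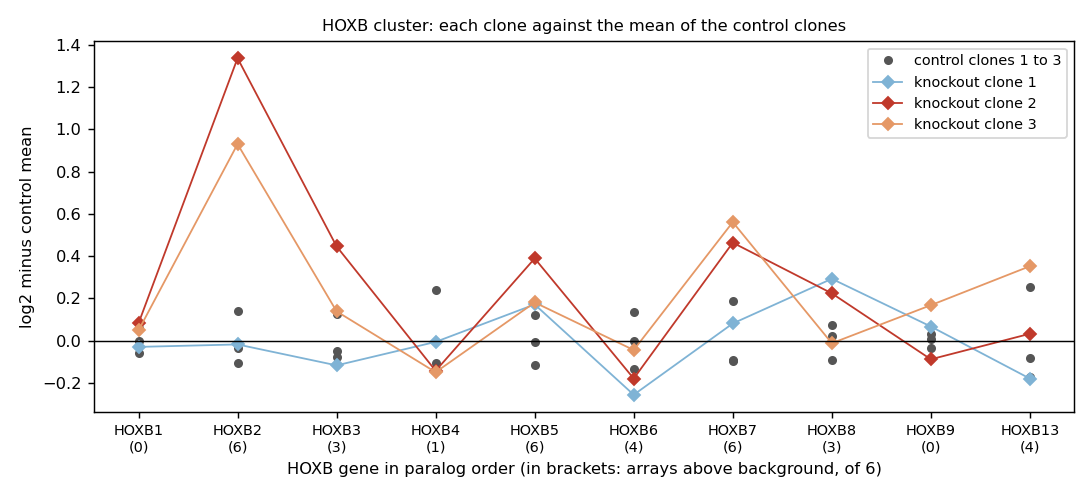
Normalized log2 intensity of each HOXB gene in each clone minus the mean of the 3 control clones; grey points are control clones, coloured diamonds joined by lines are knockout clones, and the numbers in brackets give the arrays, of 6, above background. Knockout clones 2 and 3 stand apart from the controls at HOXB2 and HOXB7, knockout clone 1 stays at the control level at HOXB2, and HOXB1, HOXB4 and HOXB9 were not tested.

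In HOXA the median difference was 0.07, with 3 of 5 tested genes above 0 and 0 past the threshold. HOXA9, a driver of acute leukaemias and of blood stem cell growth, measured 5.81, 5.92 and 5.75 in the controls and 5.67, 5.15 and 5.43 in the knockouts. All 3 knockout clones lay below the controls, with knockout clone 1 nearest to them, and the difference of -0.41 ± 0.15 (SE, n = 3 and 3, 1.33 times lower) did not pass (limma adjusted p = 0.165). It was -0.17 without background correction, -0.24 with an offset of 50 and -0.0352 with the background fitted on all rows. Its row averages several probes and was above background in 2 control clones and 1 knockout clone by detection p, although its intensity exceeded the limit of the intensity rule on all 6 arrays. The annotation also lists a read-through transcript, HOXA10-HOXA9, at this place, and signal from it cannot be told apart here.

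The central HOXA genes had small measured differences. HOXA5, needed for lung formation in mice, measured 5.62, 5.72 and 5.85 in the controls and 5.65, 5.79 and 5.99 in the knockouts, a difference of 0.08 (adjusted p = 0.770). HOXA6 measured 5.01, 4.74 and 5.09 in the controls and 5.07, 5.14 and 5.11 in the knockouts, with control clone 2 the lowest of the 6 and a difference of 0.16 (adjusted p = 0.527). HOXA4 differed by 0.07 (adjusted p = 0.784), and HOXA2, which sets the identity of the second pharyngeal arch in mice, by -0.02 (adjusted p = 0.946). Among the posterior HOXA genes, HOXA10 had intensities of 99.8, 101.9 and 104.6 in the controls and 101.7, 93.4 and 103.1 in the knockouts, so the groups overlapped.

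In HOXC the median difference was -0.01, with 2 of 4 tested genes above 0 and 0 past the threshold. HOXC8, which in mice specifies motor neurons of the forelimb level and patterns the ribs, measured 7.52, 7.18 and 7.43 in the controls and 7.50, 7.31 and 7.19 in the knockouts, a difference of -0.04 ± 0.14 (SE; limma adjusted p = 0.894) that turned to 0.00703 under median scaling. HOXC6, expressed at the forelimb and thoracic level of vertebrate embryos, measured 7.20, 6.88 and 7.05 in the controls and 7.15, 6.90 and 6.89 in the knockouts, and the difference was -0.06 (adjusted p = 0.846). For both genes every knockout clone lay within the control range, and control clone 2 was the lowest control.

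HOXC9, which represses limb-level programmes in thoracic motor neurons of the mouse, measured 5.52, 5.23 and 5.26 in the controls and 5.59, 5.20 and 5.29 in the knockouts, a difference of 0.02 (limma adjusted p = 0.951). HOXC13 measured 6.09, 5.90 and 5.98 in the controls and 6.08, 6.29 and 6.19 in the knockouts, a difference of 0.19 ± 0.12 (SE; adjusted p = 0.387). Knockout clones 2 and 3 lay above the HOXC13 controls and knockout clone 1 just inside them. HOXC4 was not tested because no array had a detection p under 0.05, but its intensities of 90.9, 87.8 and 87.7 in the controls and 97.7, 103.2 and 100.5 in the knockouts did not overlap. HOXA7 and HOXC11, also not tested, likewise measured higher in every knockout clone than in every control. The share of such rows over all genes, tested or not, was not counted. In a fit of all 34602 genes without a filter the HOXC4 difference was 0.50. Its limma adjusted p of 0.126 was the smallest of the 39 HOX genes. Of these 39, 0 passed (0.0116% of all genes did) and 7 had an unadjusted p under 0.05 (11.8% of all genes).

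**Figure D4:**
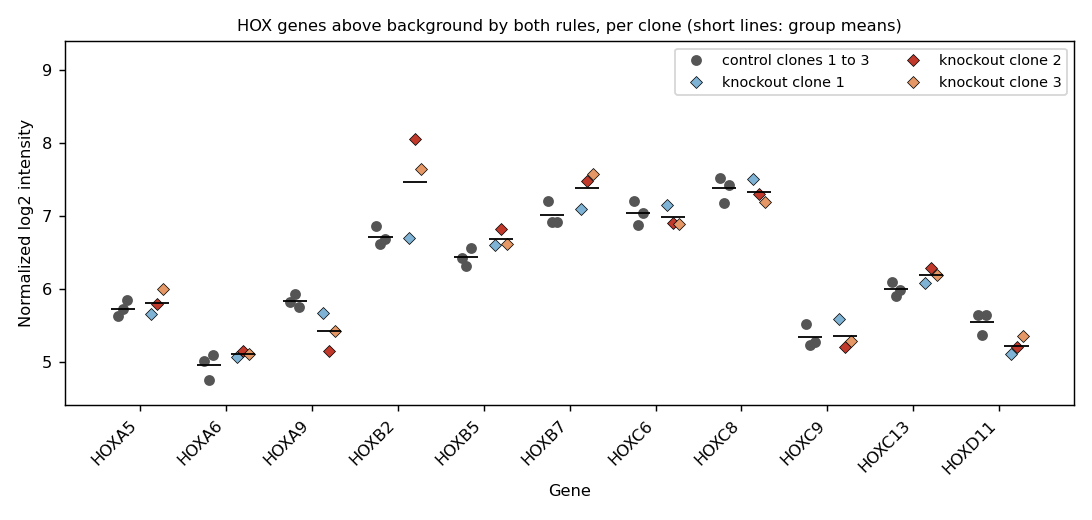
Normalized log2 intensity per clone of the 11 HOX genes above background by both rules; grey points are control clones, diamonds are knockout clones and short lines are group means (n = 3). Heights can be compared within a gene only, since probes differ in brightness; at HOXB2 knockout clones 2 and 3 lie above all controls, at HOXA9 and HOXD11 all knockout clones lie below them, and at HOXC6 and HOXC8 all knockout clones lie within the control range.

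HOXD had a median difference of -0.05, with 1 of 4 tested genes above 0 and 0 past the threshold. HOXD11, which with HOXA11 forms the forearm bones in mice, measured 5.64, 5.37 and 5.64 in the controls and 5.10, 5.20 and 5.35 in the knockouts. Its highest knockout clone lay just under its lowest control. The difference of -0.33 ± 0.13 (SE, n = 3 and 3, 1.26 times lower) did not pass (limma adjusted p = 0.191). It was -0.13 without background correction, -0.18 with an offset of 50 and -0.0244 with the background fitted on all rows. HOXD10, which patterns hindlimb-level motor neurons in mice, differed by 0.03 (adjusted p = 0.940), HOXD8 by -0.04 (adjusted p = 0.925) and HOXD3, which shapes the first neck vertebrae in mice, by -0.07 (adjusted p = 0.795). HOXD8 varied more among controls, at 4.26, 4.78 and 4.48, than between the groups.

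The medians by position in the cluster lay close together. The median difference was 0.07 for the 4 tested anterior genes, 0.07 for the 10 central genes and 0.02 for the 6 posterior genes, each with 0 past the threshold. Within paralog group 9, HOXA9 differed by -0.41 and HOXC9 by 0.02; within group 2, HOXB2 differed by 0.75 and HOXA2 by -0.02. Genes with the same number in different clusters therefore had different measured values, although the differences between clusters were not tested.

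HOX cofactors and regulators were read from lists of related genes. Of 9 TALE cofactors, 7 were tested, of which 0 passed; their median difference was 0.02. PBX2 measured 5.39, 5.29 and 5.54 in the controls and 5.94, 6.06 and 5.82 in the knockouts, groups that did not overlap, with a difference of 0.54 (limma adjusted p = 0.0630). MEIS3 differed by 0.31 (adjusted p = 0.163). MEIS2 and PKNOX2 were above background on no array.

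Of 10 trithorax-type regulators, 8 were tested, of which 0 passed; their median difference was 0.15. DPY30, a core subunit of the histone H3K4 methyltransferase complexes, measured 8.23, 7.53 and 7.78 in the controls and 8.36, 8.36 and 8.35 in the knockouts, a difference of 0.51 (limma adjusted p = 0.147). The row named MLL4 differed by 0.29 (adjusted p = 0.181) and PSIP1, a chromatin tether of the MLL complex, by -0.29 (adjusted p = 0.260). The rows named MLL2 and MLL3 were above background on no array.

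Of 11 genes for retinoid signalling, CDX factors and CTCF, which open or bound the clusters in embryos, 4 were tested, 1 rose and 0 fell, with a median difference of -0.02. RXRA, the nuclear receptor that pairs with retinoic acid receptors, measured 7.42, 6.75 and 7.04 in the controls and 8.10, 8.20 and 8.18 in the knockouts. Every knockout clone lay above every control, and RXRA rose 2.13-fold (1.09 ± 0.17 on the log2 scale, SE; limma adjusted p = 0.0217). The call held in 5 of 15 other settings, with adjusted p from 0.00448 to 0.127 and differences of 0.53 to 1.26, and it was lost without control clone 2 (adjusted p = 0.0517), control clone 3 (adjusted p = 0.127), knockout clone 2 (adjusted p = 0.0650) or knockout clone 3 (adjusted p = 0.0844). CTCF differed by -0.22 (adjusted p = 0.423) and CYP26B1, which degrades retinoic acid, by -0.12 (adjusted p = 0.704). RARB, CYP26A1, CDX1 and CDX4 were above background on no array.

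Noncoding RNAs of the clusters were represented by 7 rows. HOTAIR, transcribed from HOXC, measured 4.75, 4.86 and 4.69 in the controls and 4.72, 5.10 and 5.00 in the knockouts, a difference of 0.17 (limma adjusted p = 0.507). HOXA11AS, the antisense partner of HOXA11, was above background on all 6 arrays while HOXA11 was seen on 2, and it differed by -0.10 (adjusted p = 0.729). The rows of MIR10A, MIR10B, MIR196A1, MIR196A2 and MIR196B were above background on no array.

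Of 14 genes beside the clusters, 7 were tested, of which 0 passed; their median difference was 0.08. The smallest p-values belonged to CALCOCO1 at 0.21 (limma adjusted p = 0.452), SMUG1, a uracil DNA glycosylase, at 0.23 (adjusted p = 0.488) and KIAA1715 at -0.13 (adjusted p = 0.593). EVX1 and EVX2, homeobox genes beyond the posterior ends of HOXA and HOXD, were above background on no array, nor were SKAP1, PRAC and TTLL6. MTX2, at the anterior end of HOXD, was above background on no array by detection p at intensities of 175 to 236, which shows how far the detection p of an averaged row can lie from its signal.

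Of 12 limb patterning genes, 5 were tested, of which 0 passed; their median difference was -0.00421. PITX1, a hindlimb identity factor, measured 8.85, 8.31 and 8.64 in the controls and 8.003, 8.53 and 8.80 in the knockouts, so the groups overlapped. TBX15, which acts in limb and skeletal mesenchyme of mice, measured 5.21, 4.73 and 4.97 in the controls and 4.25, 4.60 and 4.56 in the knockouts, a difference of -0.50 (limma adjusted p = 0.123). GLI3, a transcription factor of hedgehog signalling, differed by 0.39 (adjusted p = 0.274). TBX4 and TBX5, which mark hindlimb and forelimb, were above background on no array, nor were SHH, FGF10, GREM1, ALX4 and LMX1B.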

How the data were processed

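Total RNA of 6 clones was measured on Illumina bead arrays. The authors deposited each gene's mean bead intensity, linear and without background subtraction or normalization, with, per the file headers, a detection p-value, a standard error of the bead signal and a bead number. They also deposited a table of log2 values, which match quantile-normalized log2 intensities to within 4.99e-09. The submitters' processing notes name lumi and limma; their roles and versions are not stated there. Of 34694 rows, 92 were spike-in controls and were left out; 27 symbols turned into dates were restored from the description in their row. There were 0 other columns of per-sample values.

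Intensities were corrected with the normexp model in limma 3.58.1 (R 4.3.3; data.table version 1.17.8). Its background was fitted on 27408 rows (79.0%), those with a detection p that is a multiple, within 0.001 of a step, of the step set by 770 negative controls on all arrays. After an offset of 16, the log2 values were quantile normalized. Genes with a detection p under 0.05 on at least 3 arrays (13145) were fitted with lmFit and eBayes, 2-sided, without covariates, and adjusted by the Benjamini-Hochberg method at 0.05; 21457 genes were not tested. The fit was tested on simulated data.

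The HOX members, the lists of related genes and the settings were chosen with earlier results of these data known. All HOX genes are counted, and those above background on at least 3 arrays have values. A gene of another list is named if it passed, had one of the 3 smallest p-values or was above background on no array. CALCOCO2, COL1A1 and BGLAP are named outside these rules. Values of 2 genes that these rules would name are not reported here. Alternatives covered background, normalization, filter, offset, replicate number as a block and each clone left out. Deviations of same-numbered clones were close to uncorrelated, which cannot settle whether those clones were handled together. Pairwise correlations between arrays were 0.960 to 0.993, and 0 pairs were identical. The gene table and promoter windows are RefSeq on GRCh38.p14; the files name no build, so the table served only for gene order. The number of arrays limits the precision.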

Additional observations from a re-analysis of the deposited data

How the results depend on the processing

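Of 274 differences of single HOX genes over 15 other settings, 259 kept their direction, 15 turned and 1 passed the threshold. In every setting in which they were tested, 11 genes kept their direction. Many of the 274 could not turn, since the other filters and the replicate block leave each difference as it was. The deposited log2 values also repeat the differences without background correction. The count of kept directions therefore overstates how steady they were. The call that changed was HOXB2 without knockout clone 1. Direction was steadier than size: with the background fitted on all rows HOXB2 was 0.280, HOXB7 0.124, HOXB5 0.0455, HOXA9 -0.0352 and HOXD11 -0.0244, and without background correction they were 0.524, 0.255, 0.145, -0.173 and -0.128. The turned values were of genes near 0: HOXC8 at 0.00703 under median scaling, and, in the ranges with a clone left out, HOXC6 (-0.146 to 0.0202), HOXC8 (-0.143 to 0.0280), HOXC9 (-0.0935 to 0.111), HOXB13 (-0.0734 to 0.200), HOXD8 (-0.161 to 0.0996), HOXD10 (-0.0110 to 0.133), HOXD3 (-0.129 to 0.00910), HOXA2 (-0.0553 to 0.0163) and HOXA5 (-0.00743 to 0.162). The number of HOX genes past the threshold was 0 in every other setting and 0 to 1 with a clone left out. Their median difference was 0.00240 with the background fitted on all rows and 0.159 over the 9 genes with a detection p under 0.01 on all 6 arrays, and 0.00724 to 0.0866 with a clone left out. HOX genes above background numbered 11 at a detection p under 0.01, 10 on all 6 arrays, 13 by the intensity rule and 16 to 19 with a clone left out. Among cofactors and regulators, RXRA lost its call, leaving 0, with the background fitted on all rows, without background correction, on the deposited log2 values, without a filter, with an offset of 50 and with the replicate block; the count was 2 under median scaling, with PBX2 added, and 0 to 2 with a clone left out, with DPY30 added without control clone 1. Over all genes, 207 calls became 0 with the background fitted on all rows (2260 at an unadjusted p under 0.05), 64 without background correction and on the deposited log2 values, 585 under median scaling (553 higher and 32 lower, against 158 and 49), 4 without a filter, 361 with the stricter filter, 61 with an offset of 50 and 5 to 586 with a clone left out (586 without control clone 1, 66 and 5 without control clones 2 and 3, 55 and 51 without knockout clones 2 and 3). With the replicate block there were 122 calls. The labels do not say whether same-numbered clones were handled together. Their deviations correlated at 0.0656, 0.0153 and 0.0187, which cannot settle it with 3 clones per group. Detection close to background limits the 9 genes kept by detection p alone.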
